A study of Danio rerio with 4 samples.

Results

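The parvalbumin genes of the zebrafish are a family of 9 genes, pvalb1 to pvalb9, that encode small cytosolic calcium-binding proteins. Its members were identified by gene symbol, and all 9 were found among the 25522 genes of a Ribo-seq table from brain tissue of nop2 mutant zebrafish and their siblings. Ribo-seq sequences footprints, the stretches of RNA that a ribosome shields from digestion. Nop2 is a nucleolar protein of ribosome assembly, and the study set animals labelled nop2 mutant against animals labelled nop2 sibling. The mutant allele, the genotypes pooled as siblings and the number of animals per library are not stated in the labels. For age, 48 days post fertilization is written in the titles but 48 hours in the design text, and the labels do not settle which is right. With 1 Ribo-seq library for each genotype, the differences below have no replicate check and carry no p-value.

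Parvalbumins are EF-hand proteins, in which a loop between helices holds a calcium ion. In fast skeletal muscle they take up calcium after a contraction and so speed relaxation, and fish muscle is known for very high amounts of them. In the nervous system they buffer calcium in certain fast-firing neurons, and the zebrafish pvalb7 protein is a standard marker of cerebellar Purkinje cells. The oncomodulins form a branch of the family that was first known in mammals and is prominent in sensory hair cells of the ear. The gene table of RefSeq gives ocma as a synonym of pvalb8 and ocmb as a synonym of pvalb9. The deposited table annotates all 9 genes with calcium ion binding.

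The libraries held 20696345 footprint reads from siblings and 18884879 from mutants, and reads scaled to a common library total are given as CPM, with 1 read at 0.0483 CPM in siblings and 0.0530 CPM in mutants. Of all listed genes 18127 reached a mean of 1 CPM over both libraries and are called measured below, and all 9 parvalbumin genes were among them. For nop2, the mutated gene, 657 sibling reads and 41 mutant reads were counted. Although the labels describe whole brain, genes of skeletal muscle were abundant. Fast muscle contractile genes made up 7.29% of the sibling library but 2.49% of the mutant library, and 20 pan-neuronal genes 0.711% and 0.554%. In such tissue samples fewer cells of a type and less RNA per cell cannot be told apart, and without RNA counts a footprint difference holds both transcript abundance and ribosome load.

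Parvalbumin footprints were fewer in the mutant library as a whole, but single genes differed in direction. The 9 genes summed to 206598 sibling reads (0.998% of that library) and 79802 mutant reads (0.423%). The mutant over sibling ratio of the sum was -1.24 on the log2 scale (95% counting interval -1.25 to -1.23), or 2.36-fold lower. Most of this sum came from pvalb1 and pvalb2, which held 195813 and 64318 reads together. The other 7 genes summed to 10785 and 15484 reads and lay 1.57-fold higher in the mutant library (log2 ratio 0.65, 0.62 to 0.69). The library with more parvalbumin footprints therefore depended on which genes were counted.

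Of the 9 genes 5 were lower and 4 higher in the mutant library with counting intervals that did not include 0. Among all measured genes 31.9% had an interval below 0 and 25.2% an interval above 0. At least 2-fold lower were pvalb1 and pvalb6, 2 of 9 genes beside 5.7% of all measured genes. At a minimum of 10 CPM, which leaves out pvalb6, the count was 1. At least 2-fold higher were pvalb7 and pvalb9, again 2 of 9, beside 4.72% of all measured genes. This count fell to 0 with the authors' TPM or with library totals that leave out muscle genes, and to 1 with a pseudocount of 5 or at a minimum of 10 CPM. Just outside these limits lay pvalb2, with a log2 ratio of -0.98. The median log2 ratio of the 9 genes was -0.28, and that of all measured genes was -0.06. Among all 18127 measured genes 9985 were lower and 8142 higher, without regard to intervals, and the tallies of gene lists below are to be read beside that split. These counts describe 1 library per genotype and 9 genes of 1 family, and the intervals cover counting error only.

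**Figure D1:**
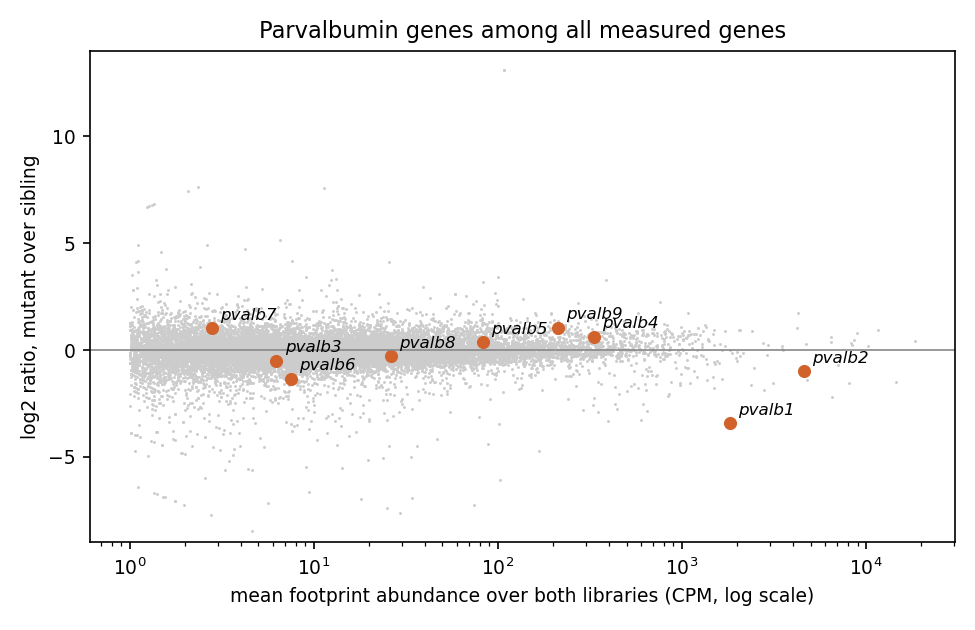
Log2 ratio of mutant over sibling footprints (vertical axis) against the mean abundance over both libraries in CPM (horizontal axis, log scale) for the 18127 measured genes in grey and the 9 parvalbumin genes in orange. Among abundant genes pvalb1 stands far below the main cloud at -3.42, pvalb2 lies at -0.98, and pvalb4 and pvalb9 lie above 0.

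The 9 genes covered a wide range of levels. Levels per length are given here as the authors' TPM, a length-scaled abundance with a fixed total, in which 1 sibling read was worth the same TPM to within 0.1% for 8 of the 9 genes and 0.843% more for pvalb5, so that read counts and TPM order the family alike. The most abundant was pvalb2, at 16242 sibling TPM and 7885 mutant TPM. Its rank among all listed genes was 1 in siblings and 7 in mutants. The next in the sibling library was pvalb1, with 8869 TPM and rank 5, whereas in the mutant library it stood at 793 TPM and rank 236. The gene pvalb4 was at 694 sibling TPM and 1028 mutant TPM. Then came pvalb9 (368 and 728 TPM), pvalb5 (194 and 242 TPM) and pvalb8 (76.2 and 60.2 TPM). The least abundant were pvalb6 (28.6 and 10.8 TPM), pvalb3 (19.5 and 13.3 TPM) and pvalb7 (4.87 and 9.58 TPM).

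The order of levels was nearly kept between the libraries, with changes at pvalb1 and at the low end. From high to low the sibling order was pvalb2, pvalb1, pvalb4, pvalb9, pvalb5, pvalb8, pvalb6, pvalb3 and pvalb7, and no neighbours in it had overlapping counting intervals. In the mutant library pvalb4 stood above pvalb1, and pvalb3 above pvalb6. There the intervals of pvalb3 and pvalb6, and those of pvalb6 and pvalb7, overlapped, so that the order of these 3 genes was not resolved at this depth.

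**Figure D2:**
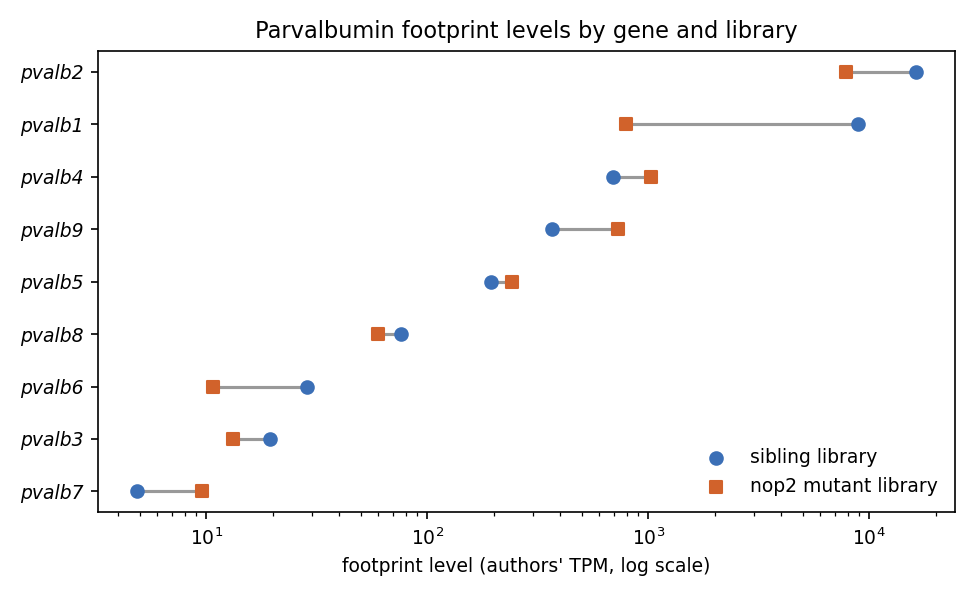
Footprint level of each parvalbumin gene in the authors' TPM (horizontal axis, log scale), with 1 circle for the sibling and 1 square for the mutant library. The widest gap is that of pvalb1, from 8869 to 793 TPM, and the mutant square lies to the right for pvalb4, pvalb5, pvalb7 and pvalb9.

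The muscle parvalbumins pvalb1 and pvalb2 were both lower in the mutant library, by different amounts. Both are known as abundant genes of zebrafish skeletal muscle. On pvalb1 (ENSDARG00000037789) lay 69162 sibling reads (3342 CPM) but 5879 mutant reads (311 CPM). Its log2 ratio was -3.42 (-3.46 to -3.39), which is 10.7-fold lower. Among all measured genes 88, pvalb1 included, had a ratio this low or lower, as had 4 of the 1653 genes that averaged 100 CPM or more. Of the 4 parvalbumin genes at 100 CPM or more only pvalb1 was at least 2-fold lower, beside 4.66% of all genes at that level.

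On pvalb2 (ENSDARG00000002768) lay 126651 sibling reads (6119 CPM) and 58439 mutant reads (3094 CPM). Its log2 ratio of -0.98 (-0.998 to -0.970) corresponds to 1.98-fold lower. The counting intervals of pvalb1 and pvalb2 were far apart, and the log2 ratio of pvalb1 minus that of pvalb2 was -2.44. The TPM of pvalb2 was 1.83 times that of pvalb1 in siblings and 9.94 times in mutants.

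The genes pvalb3 and pvalb4 went opposite ways. On pvalb3 (ENSDARG00000022817) there were 152 sibling reads and 98 mutant reads (7.34 and 5.19 CPM), a log2 ratio of -0.50 (-0.88 to -0.13). On pvalb4 (ENSDARG00000024433) there were 5412 and 7616 reads (261 and 403 CPM), a log2 ratio of 0.62 (0.57 to 0.68). In the sibling library pvalb1 had 12.8 times the level of pvalb4, while in the mutant library it had 0.772 times that level.

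Some of these counts were estimates and not whole numbers. Whole in both libraries were the counts of 5 members, while those of pvalb1 and pvalb4 in siblings, and of pvalb2 and pvalb3 in both genotypes, were not. In the sibling library the estimated counts 69161.78 of pvalb1 and 5412.22 of pvalb4 add up to a whole number. The same holds for 126651.05 of pvalb2 and 151.95 of pvalb3, and in the mutant library for 58438.79 and 98.21. Whether reads were divided between the genes of a pair was not tested. The value of pvalb3, with 152 reads beside the 126651 of pvalb2, is therefore uncertain. The same limit holds for the sibling count of pvalb4, 5412 reads beside the 69162 of pvalb1, and so for its ratio.

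The genes pvalb5 and pvalb9 were both higher in the mutant library, and their counts were whole. On pvalb5 (ENSDARG00000032836) 1497 sibling and 1778 mutant reads were counted (72.3 and 94.1 CPM), giving a log2 ratio of 0.38 (0.28 to 0.48). On pvalb9 (ENSDARG00000071601) 2869 and 5395 reads were counted (139 and 286 CPM), giving 1.04 (0.98 to 1.11), or 2.06-fold higher. With the ratio of the authors' deposited table, which compares TPM, pvalb9 stood at 0.98 and so below the 2-fold limit, as did pvalb7 at 0.98.

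The oncomodulin-like gene pvalb8 (ENSDARG00000037790), known as a hair cell gene in the zebrafish, differed little. It had 594 sibling and 446 mutant reads (28.7 and 23.6 CPM), a log2 ratio of -0.28 (-0.46 to -0.10). Markers of hair cells were set beside it. Of 26 listed markers 22 were in the table and 16 were measured, 12 of them lower and 4 higher, with a median log2 ratio of -0.33. Their summed level was 192 sibling TPM and 182 mutant TPM, but their summed reads had a log2 ratio of 0.08, opposite in sign to the median. At 10 CPM or more the most abundant of them, capgb, an actin-capping protein gene, had the highest ratio (0.83). This gene alone held 1132 of the 3958 summed sibling reads and 1837 of the 3808 summed mutant reads. The calcium sensor gene s100t had the lowest ratio at 10 CPM or more (-0.77). Of markers chosen after their values were seen, the hair cell myosin gene myo6b had 462 and 340 reads (-0.31), the otoferlin gene otofb 461 and 334 reads (-0.33) and the transcription factor gene pou4f3 85 and 11 reads (-2.76). Also lower, with intervals below 0, were slc17a8 (-1.10), myo7aa (-0.88), s100s (-0.85), cacna1da (-0.83) and cdh23 (-0.60). The transcription factor gene atoh1a went the other way with 94 and 208 reads (1.27), and the intervals of ush1c (0.55, -0.05 to 1.18) and pcdh15a (0.22, -0.38 to 0.82) included 0. Of the lower markers, otofa (-0.03), tmc2a (-0.29) and tmie (-0.32) also had intervals that included 0. The ratio of pvalb9 (1.04) lay apart from that of pvalb8 and from the median of these markers. The part of hair cell number in either value was not tested.

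The Purkinje cell gene pvalb7 and pvalb6 had few footprints and went opposite ways. On pvalb6 (ENSDARG00000009311) there were 223 sibling and 80 mutant reads (10.8 and 4.24 CPM), a log2 ratio of -1.34 (-1.73 to -0.97). On pvalb7 (ENSDARG00000034705) there were 38 and 71 reads (1.84 and 3.76 CPM), a log2 ratio of 1.03 with a wide interval of 0.45 to 1.64. Its direction was not that of most Purkinje cell markers in the list. Of 18 markers 17 were in the table and 15 were measured, 11 lower and 4 higher, with a median log2 ratio of -0.34 and a summed level of 378 sibling TPM and 272 mutant TPM. At 10 CPM or more the nuclear receptor gene rorab was the lowest of them (39.9 to 7.89 CPM, -2.33). The transcription factor gene lhx1a, the most abundant, was the highest at that level (131 and 133 CPM, 0.03). Among markers below 10 CPM pcp4l1 was lower still (-3.30), and the highest was ptf1a (0.58). Of the defining markers, chosen after their values were seen, aldoca, the zebrin II antigen of Purkinje cells, had 1 and 5 reads, and ca8 had 70 and 59 reads (-0.11, -0.64 to 0.41).

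Genes of GABAergic neurons, the wider class that holds Purkinje cells, divided evenly. Of 14 measured genes 7 were higher and 7 lower, with a median of 0.05 that changed sign with the authors' TPM (-0.01) and at a minimum of 10 CPM (-0.07). Their summed reads had a log2 ratio of -0.49. The GABA transporter gene slc6a1b, the most abundant, was also the lowest (218 to 98.5 CPM, -1.15), and the somatostatin gene sst1.1 was the highest (0.46). Whether the number of Purkinje or other GABAergic cells had a part in the values of pvalb6 and pvalb7 was not tested.

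The make-up of the parvalbumin footprints differed between the libraries. Of all parvalbumin reads pvalb2 took 61.3% (exact binomial interval 61.1 to 61.5) in siblings and 73.2% (72.9 to 73.5) in mutants. Shares are parts of a fixed total, and a larger share need not be a higher level. The level of pvalb2 itself was lower in the mutant library (6119 and 3094 CPM). The share of pvalb1 was 33.5% (33.3 to 33.7) and 7.37% (7.19 to 7.55). Shares of the next genes were larger in the mutant library, with pvalb4 at 2.62% and 9.54%, pvalb9 at 1.39% and 6.76%, and pvalb5 at 0.725% and 2.23%. The other 7 genes beside pvalb1 and pvalb2 made up 5.22% (5.12 to 5.32) and 19.4% (19.1 to 19.7). Of the 36 pairs of members 31 had counting intervals of their log2 ratios that did not overlap. The same share among pairs of other measured genes was not counted, so this count is not read as a trait of the family.

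**Figure D3:**
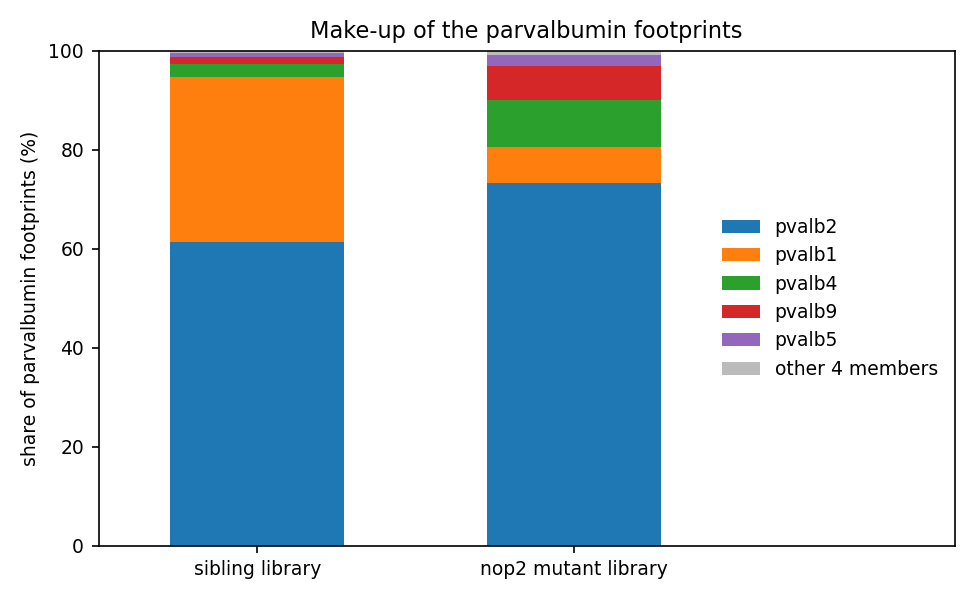
Share of all parvalbumin reads in percent (vertical axis) taken by the 5 most abundant genes and by the other 4 together, with 1 bar per library. The pvalb1 block shrinks from 33.5% in siblings to 7.37% in mutants, while the blocks of pvalb4 and pvalb9 are larger in the mutant library.

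On the scale of library totals, neighbouring genes of the family mostly differed in direction, with pvalb3 and pvalb2 the exception. In the gene order of the RefSeq table (assembly GRCz12tu, used for order only) pvalb8, pvalb4, pvalb1 and pvalb5 follow one another with 0 protein-coding genes between them. On both sides of pvalb1 (-3.42) thus lie genes with more footprints in the mutant library, pvalb4 (0.62) and pvalb5 (0.38), and pvalb8 (-0.28) lies at the end. On another chromosome pvalb9, pvalb3 and pvalb2 follow one another in the same way, with log2 ratios of 1.04, -0.50 and -0.98. The value of pvalb3 is uncertain, and the sibling count of pvalb4 has the same limit. The directions of pvalb2, pvalb3 and pvalb8 turn with the fast muscle reference used below. Neighbouring genes outside the family were not compared. The genes pvalb6 and pvalb7 have no other member next to them.

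Fast muscle genes were then set beside the family, since pvalb1 and pvalb2 are genes of that tissue. Among fast muscle contractile genes 25 of 25 measured were lower in the mutant library, 19 of them by 2-fold or more, and the log2 ratios had a median of -1.35 and ran from -4.20 to -0.23. The myosin gene myhz1.1, the most abundant, stood at 21336 and 7625 CPM (-1.48), myhz2 was the lowest at 10 CPM or more (-2.74) and the actin gene acta1a was the highest (-0.23). The ratio of pvalb1 (-3.42) lay below that of myhz2 but above that of the scarcer tnni2a.2 (70 and 3 reads, -4.20). The ratio of pvalb2 (-0.98) lay above the list's median. The list is not complete, and the myosin gene myhb outside it, seen after values were known, was at -4.48 (mean 25.6 CPM). The part of muscle content in the values of pvalb1 and pvalb2 was not tested. In the slow muscle list more genes were higher than lower, but the slow myosin genes were divided. Of 14 measured genes 9 were higher and 5 lower, with a median of 0.49. The slow myosin gene smyhc1 was the most abundant and the highest (268 to 886 CPM, 1.73). At 10 CPM or more the slow fibre regulator gene prdm1a was the lowest (-1.42). Lower as well, with intervals below 0, were the slow myosin genes smyhc2 (-0.97) and smyhc3 (-0.72), and mybpc1 (-1.61) and tnnt1 (-0.90).

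Genes that move calcium in muscle were lower, though less uniformly. Of 22 measured genes 18 were lower, 7 of these by 2-fold or more, and 4 were higher, and the median log2 ratio was -0.56. The calcium pump gene atp2a1, which returns calcium to the sarcoplasmic reticulum, was the most abundant and also the lowest (6964 to 2620 CPM, -1.41), and the calsequestrin gene casq1b, whose protein stores calcium there, was the highest (0.24). Regulators of muscle formation had a median of -0.33 over 18 measured genes, 15 lower and 3 higher. At 10 CPM or more mef2ca was the lowest (-0.90), six1b the highest (0.30), and mef2d the most abundant (-0.27). Below 10 CPM the ratios ran wider, from mymk (81 and 21 reads, -1.79) to myf5 (57 and 125 reads, 1.26).

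Each member was also counted per read of other genes in the same library, which removes the library total from the comparison. Per 100 reads of the fast muscle contractile list there were 4.59 sibling reads and 1.25 mutant reads of pvalb1, a log2 ratio of -1.87 (approximate counting interval -1.91 to -1.83), or 3.66-fold lower. For pvalb2 there were 8.40 and 12.4 reads, a log2 ratio of 0.57 (0.55 to 0.58), so that its direction turned on this scale. Relative to these muscle genes pvalb1 was the only member that was lower. A value of 0 on this scale stands for a log2 ratio of -1.55 per library total. Of all measured genes 3.26% had a ratio below that of pvalb6 (-1.34 per library total). Values above 0 here are therefore not read as a trait of the members. The ratios of pvalb3 (1.05), pvalb4 (2.18), pvalb5 (1.93), pvalb7 (2.58), pvalb8 (1.27) and pvalb9 (2.59) were above 0, and the interval of pvalb6 included 0 (0.21, -0.16 to 0.58). The sum of the 9 genes had a ratio of 0.31 (0.30 to 0.32) on this scale. Set against the summed reads of 15 ubiquitous reference genes, the sum was at -1.44, pvalb1 at -3.62, pvalb2 at -1.18, pvalb4 at 0.43 and pvalb9 at 0.85. Most of the 527224 sibling reads of this reference lay on actb2 (198081), eef1a1l1 (160215) and actb1 (89056). These genes were higher in the mutant library (0.21, 0.22 and 0.27), whereas 7 of the 15 genes were lower. Each reference subtracts its own summed log2 ratio from every member alike (-1.55 for the fast muscle list, 0.20 for the ubiquitous list). The scales are therefore not independent checks of direction. With these shifts the direction of pvalb1, pvalb4, pvalb5, pvalb7 and pvalb9 was the same on all 3 scales. That of pvalb2, pvalb3 and pvalb8 turned with the fast muscle reference, on which the direction of pvalb6 was not resolved. A reference of slow muscle genes, which were mostly higher in the mutant library, turned pvalb4 (-0.22) and pvalb5 (-0.47) instead. On that scale pvalb9 remained above 0 (0.20), the interval of pvalb7 included 0 (0.18, -0.39 to 0.75), and pvalb1 was at -4.27.

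**Figure D4:**
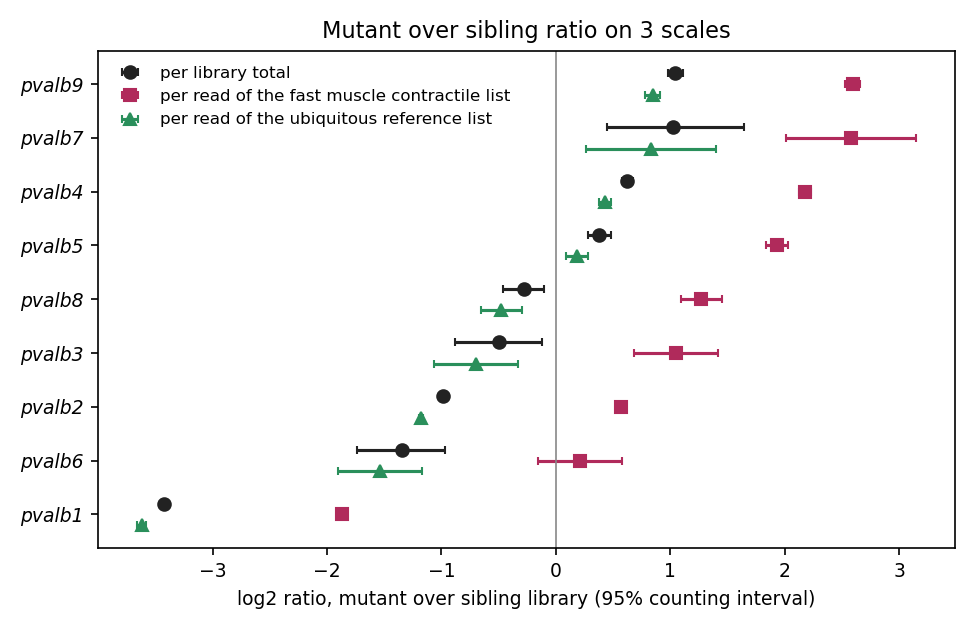
Log2 ratio of mutant over sibling for each member with 95% counting intervals (horizontal axis), per library total (black circles), per read of the fast muscle contractile list (red squares) and per read of the ubiquitous reference list (green triangles). Only pvalb1 lies below 0 with its interval on all 3 scales, and pvalb4, pvalb5, pvalb7 and pvalb9 lie above 0 on all 3. Against slow muscle genes, not drawn, pvalb4 (-0.22) and pvalb5 (-0.47) lie below 0. The scales differ by a shift that is the same for every member, so they are not independent checks.

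Other calcium-binding proteins of neurons and sensory cells were divided. Of 34 measured genes in a list of neuronal and sensory calcium buffers and sensors 13 were higher and 21 lower, with a median log2 ratio of -0.09, near that of all measured genes (-0.06). The calmodulin gene calm2b, the most abundant, stood at 514 and 422 CPM (-0.29). At 10 CPM or more the photoreceptor calcium sensor gene rcvrn2 was the lowest (42.8 to 5.56 CPM, -2.94) and s100a10b was the highest (0.91). Buffers that resemble parvalbumin in use, chosen after their values were seen, were calb1 (-0.08, -0.33 to 0.16), calb2a (-0.27), calb2b (135 to 59.5 CPM, -1.19) and the secretagogin gene scgn (88 and 163 reads, 1.02). Of all 375 other measured genes that the deposited table annotates with calcium ion binding, a list added after values were seen, 158 were higher and 217 lower, with a median of -0.14. Pan-neuronal genes had a median of -0.29 over 20 genes, 15 lower and 5 higher, with tuba1c, the most abundant, at -0.51, snap25b the lowest (-0.98) and nefmb the highest (0.10). The ubiquitous list had a median of 0.10 over 15 genes, 8 higher and 7 lower, with the actin gene actb2 the most abundant (0.21), rnf7 the lowest (-0.54) and gapdh the highest at 10 CPM or more (0.30).

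**Figure D5:**
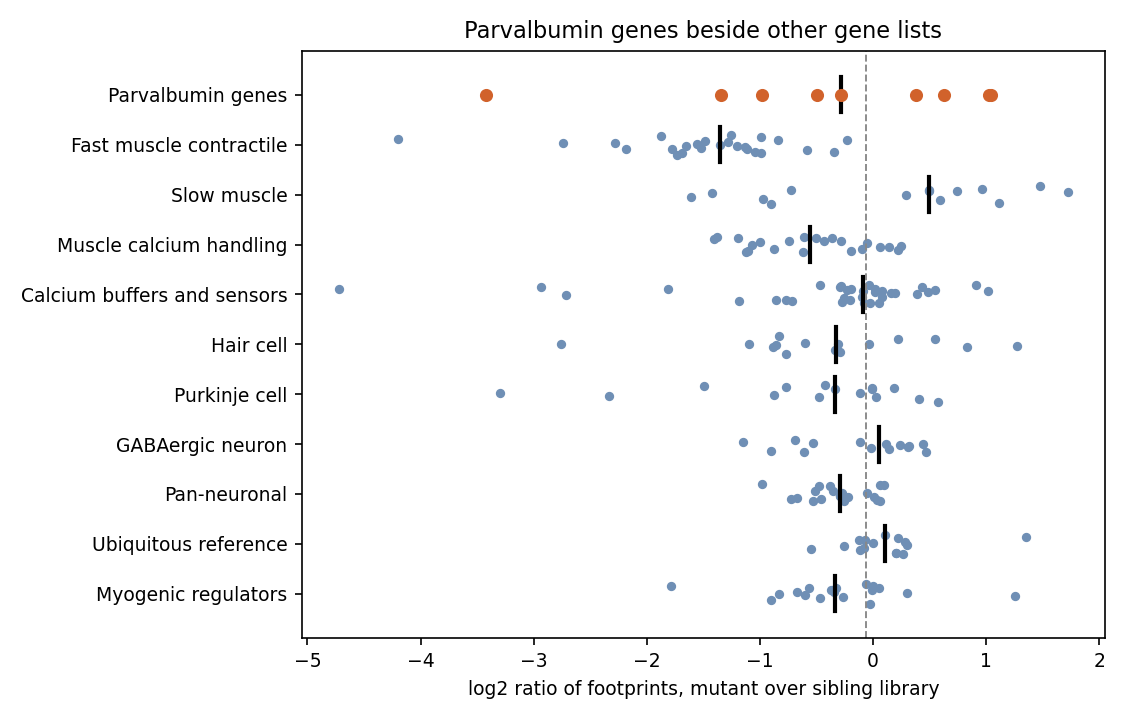
Log2 ratio of mutant over sibling footprints (horizontal axis) for each parvalbumin gene (orange) and each measured gene of 10 lists (blue, with vertical scatter for legibility). Black bars are medians, the dashed line is the median of all measured genes (-0.06), and the parvalbumin genes spread from -3.42 to 1.04 while all fast muscle genes lie below 0.

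Among abundant genes outside the family, those with the nearest ratios came from several tissues. The likeness used was the distance between log2 ratios of 2 libraries, over 1639 named genes that averaged 100 CPM or more, and it says nothing of other conditions. Nearest to pvalb1 were the retinal transcription factor gene vsx1 (-3.44) and the lens crystallin genes crygm2d18 (-3.30) and crygm2d20 (-3.28). The nearest to pvalb2 were rpsa (-0.98), the glutamate transporter gene slc1a2b (-0.98) and the fast muscle actinin gene actn3b (-0.99). Those nearest to pvalb4 were vtnb (0.62), cast (0.63) and the ribosomal protein gene rpl36 (0.62). For the sum of the family they were pkmb (-1.24), the fast troponin gene tnnt3b (-1.26) and the sarcomere gene myom2a (-1.22).

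RNA bisulfite sequencing, which reads 5-methylcytosine in RNA, gave no entry for the family. Of the 617 distinct differential loci in 92 genes in the authors' deposited table, 0 lay in a parvalbumin gene. Of 52 regions on 51 genes also 0 did. Those genes are few beside the 25522 genes listed for Ribo-seq. A count of 0 in so small a family is therefore not read as a trait of the family. The conditions compared in the bisulfite data are not tied to a genotype by the labels. The methylation level of parvalbumin transcripts was not analysed here.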

How the data were processed

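Ribo-seq and RNA bisulfite sequencing each had 1 sibling and 1 mutant library. The submitters' processing notes name Bowtie2, HISAT2 and STAR, Trimmomatic 0.38 and fastp, methylKit, SAMtools and the build GRCz11, without role or order. Which program made the counts is not given in the sources used here. What was deposited is a gene table that holds, per the file headers, the authors' expected counts per gene, estimates of which 25.7% of genes had one that was not whole (tolerance 0.001), and TPM, which the authors scaled by length and library. For all 9 members the authors' deposited log2 fold change equals mutant TPM over sibling TPM in log2. How reads shared by similar genes were divided is not stated.

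Expected counts were rounded. Log2 ratios are of CPM from counts plus 0.5, with an exact Clopper-Pearson interval at 95% conditional on the sum of both counts. Without molecular identifiers, reads need not be independent molecules, and intervals cover counting error only. Intervals of ratios to other lists use a normal approximation on log counts. Shares have exact binomial intervals. No test of genotype was possible. The ratio step was checked on simulated data. From each of 10 lists the text names the most abundant gene and the lowest and highest ratios at 10 CPM or more. The members and lists were chosen with earlier results of these data known. Alternatives were TMM (edgeR 4.0.16), DESeq2 1.42.0 size factors, the authors' TPM, a pseudocount of 5, unrounded counts, other minimums and other totals, computed with Python 3.11.15, scipy 1.17.1 and R 4.3.3.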

Additional observations from a re-analysis of the deposited data

How the results depend on the processing

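No member changed direction under TMM, DESeq2 size factors, the authors' TPM, a pseudocount of 5, unrounded counts or library totals without muscle genes, and the largest shift was 0.09 on the log2 scale. Of these 54 values 41 stayed inside the counting interval and 13 did not. The summed ratio of -1.24 became -1.19 with TMM and with DESeq2 size factors, -1.30 with the authors' TPM, -1.33 with totals without muscle genes, -1.77 without pvalb2 and -0.76 without pvalb1, the last chosen after seeing the data, as were the count of genes higher and the totals without muscle genes for single members. Its ratio to fast muscle contractile genes (0.31) was 0.19 with the authors' TPM and turned with other reference lists, to -2.09 (slow muscle), -0.0848 (muscle calcium handling) and -1.44 (ubiquitous). The 2 genes at least 2-fold lower became 1 at a minimum of 10 CPM, where 6 members are left, and the cause there is the smaller number of genes. They became 3, with pvalb2 added, with the authors' TPM and with totals without muscle genes. The 2 genes at least 2-fold higher became 0 with the authors' TPM and with totals without muscle genes, and 1 with a pseudocount of 5 or a minimum of 10 CPM. Of 70 list medians 68 kept their direction, and that of GABAergic neurons (0.05) turned to -0.0097 with the authors' TPM and -0.0655 at 10 CPM. No paired analysis was possible because each genotype had 1 library. For the same reason no replicate could be left out. With 38 and 71 reads, depth limits pvalb7 most.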
